A study of Mus musculus with 8 samples.

Results

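The small leucine-rich proteoglycans of the connective tissue matrix were followed here in whole embryonic kidneys. The 8 genes were Lum, Dcn, Bgn, Fmod, Ogn, Aspn, Prelp and Omd. Every array probe whose accession maps to one of them was taken, whatever its value. A probe was found for 7 of the 8 genes, 1 probe and 1 spot each, out of 20887 genes with a named probe. No probe mapped to Prelp. The genes were chosen by family, and selected on the KO minus WT log2 ratios in that Lum and Dcn were already known to be higher in the KO samples analysed here, so the KO minus WT differences are given as a description, without p-values.

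Kidney pairs were taken from C57BL/6 embryos at embryonic day 16.5, and 1 pair made 1 sample. The 4 KO samples came from embryos in which Dot1, taken here as the histone H3 lysine 79 methyltransferase gene Dot1l, was deleted in Six2-positive nephron progenitors (genotype label DOT1-null), and the 4 WT samples came from wildtype embryos (genotype label control). The labels name neither the Cre line nor other alleles. RNA of the sample carried Cy5 (red), and RNA of the WT1 pair carried Cy3 (green) on every array, so a value is the log2 ratio of that sample over WT1, and the WT1 array compared WT1 RNA with itself. The whole kidney holds the deleted lineage together with stroma, vessels, ureteric epithelium and blood cells that do not descend from it.

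Small leucine-rich proteoglycans are secreted proteins built on a curved array of leucine-rich repeats, and many carry chondroitin, dermatan or keratan sulfate chains. They bind fibrillar collagens and set the diameter and spacing of fibrils, and several also bind TGF-beta family ligands or cell surface receptors. In the kidney they are made mainly by stromal fibroblasts, mural cells and other mesenchyme, and the developing stroma descends largely from Foxd1-positive progenitors, a lineage separate from the Six2-positive one. In bulk RNA, more cells of a type and more RNA per cell cannot be told apart.

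The genes lie in clusters. RefSeq places Dcn and Lum side by side on chromosome 10, followed by the related Kera and Epyc, and it places Ecm2, Aspn, Omd and Ogn in a row on chromosome 13. Prelp and Fmod adjoin on chromosome 1, and Bgn is on the X chromosome. The promoters of Ogn and Aspn are shown because these clustered genes gave unlike readings below, of which that of Aspn is a dim one. Each window runs from 250 bases before to 50 after the annotated start, from RefSeq on GRCm38.p6, and capitals mark every match, on either strand, to the searched motifs.
Ogn, chr13:49607765-49608064, plus strand: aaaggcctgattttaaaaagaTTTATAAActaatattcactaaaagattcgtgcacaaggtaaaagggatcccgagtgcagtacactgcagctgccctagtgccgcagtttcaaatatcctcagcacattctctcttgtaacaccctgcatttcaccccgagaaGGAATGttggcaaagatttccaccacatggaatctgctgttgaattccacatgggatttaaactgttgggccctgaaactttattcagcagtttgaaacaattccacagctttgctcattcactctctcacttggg
Aspn, chr13:49544193-49544492, plus strand: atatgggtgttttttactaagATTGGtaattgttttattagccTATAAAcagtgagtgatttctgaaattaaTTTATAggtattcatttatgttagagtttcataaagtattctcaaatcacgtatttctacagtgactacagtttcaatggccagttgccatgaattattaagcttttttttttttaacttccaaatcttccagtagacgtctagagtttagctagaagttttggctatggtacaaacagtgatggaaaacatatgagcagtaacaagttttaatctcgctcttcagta
The motifs searched were the TATA box (TATAAA), the AP-1 site (TGANTCA), the TEAD site (GGAATG), the CCAAT box (CCAAT) and the GC box (GGGCGG). Ogn held a TATA box match on both strands, overlapping, with the plus-strand match at -227, and a TEAD match at -86. Aspn held a CCAAT match on the minus strand at -229 and TATA box matches at -207 and, on the minus strand, at -178. Of 32851 promoter windows of the same length, 13.6% held the TATA box letters, 14.7% the TEAD letters and 37.4% the CCAAT letters. A match is a run of letters only, and no binding was measured.

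Lum, Dcn and Ogn read higher in KO kidneys than in WT kidneys on every array, and the groups overlapped for Bgn, Fmod and Aspn. Omd was not well above background on any array. The 6 genes that passed the filter on dim probes had KO minus WT differences between 0.02 and 0.70 on the log2 scale, with a median of 0.35, against a median of 0.03 over all 13974 genes tested. In limma's fit across all those genes, 3 of the 6 (Lum, Dcn and Ogn) passed the 0.05 threshold after Benjamini-Hochberg adjustment, all higher in KO. Of all genes tested, 2.15% passed (300 genes), 1.6% as higher and 0.544% as lower in KO. The groups did not overlap for the same 3 genes, as they did not for 9.27% of all genes, 6.81% with KO higher. The choice of the genes used this contrast, so nothing is read from these counts.

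Lumican (Lum, probe A_51_P167527) carries keratan sulfate chains and keeps collagen fibrils thin and evenly spaced, as known from cornea and skin. Its log2 ratio was 1.02, 0.55, 0.64 and 0.57 in KO1 to KO4, against -0.30, 0.18, 0.08 and 0.03 in WT1 to WT4. All KO arrays lay above all WT arrays, with KO1 the highest and WT1 the lowest of the 8. The means were 0.70 ± 0.22 in KO and -0.0022 ± 0.21 in WT (SD, n = 4 each), a difference of 0.70 (SE 0.13) or 1.62-fold. The probe was well above background in red on 4 KO arrays and on 3 WT arrays, WT1 being the exception. Without WT1 and KO1, the arrays with a high red background, the difference was 0.49 (SE 0.086). The call was kept there, but nothing is read from that, since the choice of the gene used this contrast.

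Decorin (Dcn, probe A_51_P334104) binds type I collagen and TGF-beta and usually carries a single dermatan or chondroitin sulfate chain. Its log2 ratio was 0.71, 0.46, 0.46 and 0.53 in KO1 to KO4, against 0.12, -0.03, 0.10 and -0.14 in WT1 to WT4. The groups were far apart, with each KO array at least at 0.46 and no WT array above 0.12. The means were 0.54 ± 0.12 in KO and 0.013 ± 0.12 in WT (SD, n = 4 each), a difference of 0.53 (SE 0.094) or 1.44-fold. Without WT1 and KO1 it was 0.51 (SE 0.092), and without KO4 the gene was no longer called.

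Osteoglycin (Ogn, also called mimecan, probe A_51_P295085) is a smaller member with keratan sulfate chains that is made in many connective tissues. Its log2 ratio was 0.58, 0.40, 0.29 and 0.50 in KO1 to KO4, against -0.32, -0.28, -0.14 and -0.28 in WT1 to WT4. KO arrays were all above 0 and WT arrays all below it. The means were 0.44 ± 0.13 in KO and -0.25 ± 0.080 in WT (SD, n = 4 each), a difference of 0.70 (SE 0.090) or 1.62-fold. Without WT1 and KO1 the difference was 0.63 (SE 0.094). The WT1 array, with the same RNA in both colours, read -0.32 for Ogn and -0.30 for Lum where equal RNA would give 0.

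The calls of Lum, Dcn and Ogn ended together under median centring in place of loess, in the red channel alone, and with the embryo's sex as a term. Those of Lum and Dcn also ended with the scanner software's own ratios, at differences of 0.79 and 0.49. With sex as a term the differences were 0.51 (SE 0.20) for Lum, 0.57 (SE 0.15) for Dcn and 0.73 (SE 0.15) for Ogn.

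Biglycan (Bgn, probe A_52_P162486) is the closest relative of decorin and is made by mural cells and stroma. Its log2 ratio was -0.49, -0.02, 0.22 and -0.29 in KO1 to KO4, against -0.01, 0.11, -0.23 and -0.52 in WT1 to WT4. The arrays spread widely within each group, and the groups overlapped. The difference was 0.02 (SE 0.16), on means of -0.15 ± 0.31 in KO and -0.17 ± 0.28 in WT (SD, n = 4 each). Its sign turned when single arrays were left out, with values from -0.10 without KO3 to 0.14 without KO1.

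Fibromodulin (Fmod, probe A_51_P207622), a keratan sulfate proteoglycan that shares a collagen site with lumican, ranged between -0.10 and 0.24 in KO and between -0.06 and 0.22 in WT. Its means were 0.097 ± 0.17 in KO and 0.038 ± 0.12 in WT (SD, n = 4 each), a difference of 0.06 (SE 0.10). Asporin (Aspn, probe A_51_P142813), which binds collagen and TGF-beta and often carries no sugar chain, read -0.10, -0.34, -0.15 and -0.10 in KO1 to KO4, against -0.39, -0.43, -0.34 and -0.22 in WT1 to WT4. Its groups overlapped, since KO2 fell among the WT arrays, and the difference was 0.17 (SE 0.090). The asporin probe was well above background on 2 KO and 3 WT arrays, so its reading is a dim one. Osteomodulin (Omd, probe A_51_P342926), a keratan sulfate proteoglycan of bone, lay between -0.14 and 0.21 in KO and between -0.10 and 0.08 in WT, and no fold is given for it.

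**Figure D1:**
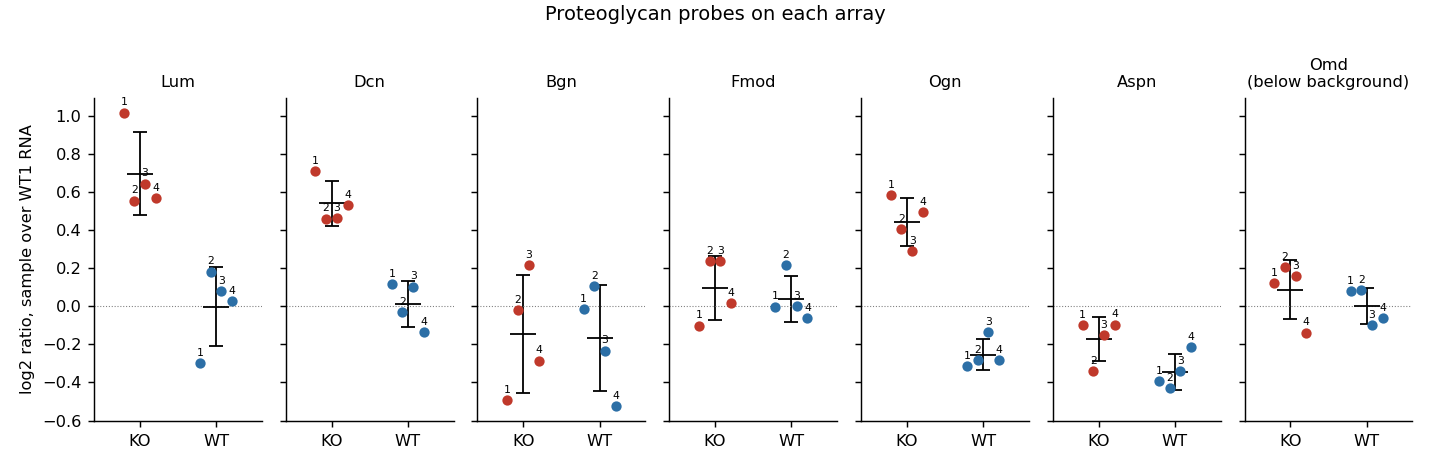
Log2 ratio of each sample over the WT1 RNA (vertical axis) for the 7 proteoglycan probes, KO arrays (red) left of WT arrays (blue), each point 1 array with its replicate number. Bars are mean ± SD (n = 4), and for Lum, Dcn and Ogn every KO point lies above every WT point, while Bgn and Fmod overlap.

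The genes did not vary as 1 block from array to array. Over the 8 arrays the Pearson correlation was 0.96 between Dcn and Ogn and 0.92 between Lum and Ogn, and 0.64 and 0.54 after each group's mean was taken out. Lum and Dcn correlated at 0.86, and at 0.23 for the deviations. Bgn and Fmod formed another pair, at 0.87 and, for the deviations, 0.89. Against Ogn, the deviations of Bgn and of Fmod correlated at -0.71 and -0.68. The dim Aspn correlated with Ogn, Lum and Dcn at 0.72, 0.71 and 0.65, and at 0.30, 0.30 and 0.04 for the deviations. With Bgn and Fmod it correlated at -0.47 and -0.36. All these values share the WT1 reference and 8 hybridisations, and they are descriptions without a test.

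The genes with the ratios most like Lum over the 8 arrays, by Pearson correlation among all tested genes, were Rprm at 0.98, Rab33b and Plagl1 at 0.97, and Chrna4 and Acp6 at 0.95. Rab33b, Chrna4 and Acp6 differed by 0.15, 0.24 and 0.14 and did not pass (limma adjusted p = 0.405, 0.169 and 0.453). Rprm, a p53-induced cell cycle arrest gene, was 0.44 higher in KO (limma adjusted p = 0.0268). Plagl1, an imprinted zinc finger gene, was 0.51 higher (limma adjusted p = 0.0202). Other Plagl1 probes differed, at 0.48, 0.10 and 0.04. For Dcn the closest were Dip2a at 0.97, Atp6v1g1, Btg3 and Ogn at 0.96 and Mterf4 at 0.95. Ogn thus ranked among the 5 most like Dcn, whereas Lum, its neighbour on the chromosome, did not. The other 4 most like Dcn did not pass the test (limma adjusted p between 0.0803 and 0.786). Likeness to Lum or Dcn, genes chosen as higher in KO, favours genes higher in KO, so nothing is read from these calls.

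Because the green channel held the same WT1 RNA on every array, a green difference between the groups is not a difference in the green RNA. The red RNA on the same spots did differ between the groups, and its part in the green signal was not tested. Each channel was quantile normalised alone over 3 KO and 3 WT arrays, without WT1 and KO1. Dcn differed by 0.32 in red (KO minus WT, log2) and by -0.17 in green, against 0.51 as a ratio. In green, Dcn read 12.83, 12.76 and 12.85 in KO2 to KO4, against 13.05, 12.88 and 13.03 in WT2 to WT4, so the groups did not overlap although the green RNA was the same. Ogn differed by 0.45 in red and by -0.17 in green, against 0.63 as a ratio.

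Lum differed by 0.42 in red and by -0.06 in green, against 0.49 as a ratio. For Lum, Dcn and Ogn alike the red difference was larger in size than the green one, which was smallest for Lum. In red, KO and WT arrays did not overlap for Lum, Dcn or Ogn. The share of all genes without overlap over 3 KO and 3 WT arrays was not counted in red or green. Nothing is therefore read from a lack of overlap in a single channel. The green differences of Dcn and Ogn lay at percentiles 2.68 and 3.22 of all tested genes, whose 5th to 95th percentiles were -0.15 to 0.12, and that of Lum at percentile 22.7. The red differences lay at percentiles 92.8, 96.5 and 95.8 for Dcn, Ogn and Lum. Those of Bgn, Fmod and Aspn lay at percentiles 90.6, 81.8 and 54.9. Over the 224 genes called higher, the median was 0.54 in red and -0.04 in green, and over the 76 called lower it was -0.69 in red and 0.03 in green.

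Bgn moved the other way in green, by 0.10 with groups that did not overlap, and by 0.27 in red with groups that did. Aspn differed by 0.0062 in red and by -0.07 in green. In the red channel alone none of the 6 genes passed the threshold. All WT arrays lay in row 1 of the slide and all KO arrays in row 2, so slide row and genotype cannot be told apart, and the part of either in the green differences was not tested.

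**Figure D2:**
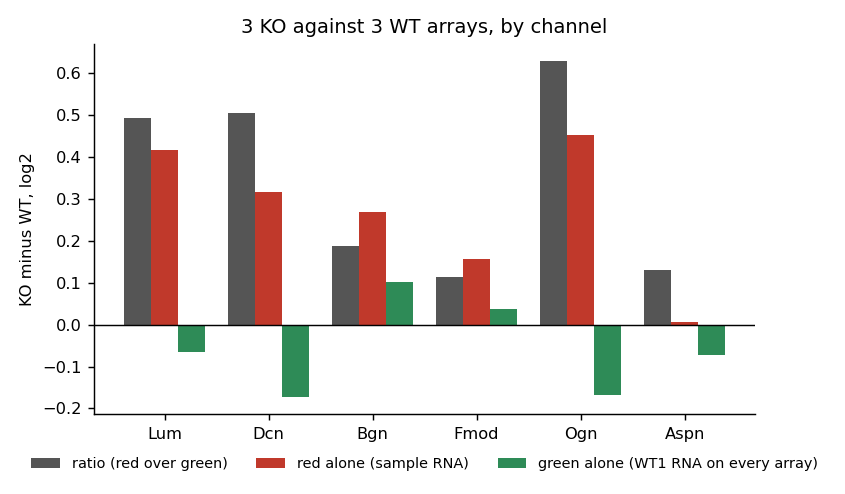
KO minus WT difference in log2 units (vertical axis) for 6 proteoglycan genes over 3 KO and 3 WT arrays, from the ratio (grey), the red channel of the samples (red) and the green channel of the shared WT1 RNA (green). Red bars are 0.42 for Lum, 0.32 for Dcn and 0.45 for Ogn, while the green bars of Dcn and Ogn both reach -0.17.

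Of the related family genes outside the 8, 5 of 10 passed the filter on dim probes and none passed the test in either direction. Their median difference was 0.09. Podn (podocan, a matrix member of the same family) differed most, by 0.36 (SE 0.14, limma adjusted p = 0.243). It read 0.33, 0.17, 0.92 and 0.59 in KO1 to KO4, against 0.16, 0.01, 0.28 and 0.09 in WT1 to WT4, with KO2 inside the WT range. Without KO3 it differed by 0.23. Chadl differed by 0.17, Podnl1 and Ecm2 by 0.09 and Tsku by 0.06. The corneal gene Kera and the cartilage gene Epyc, which follow Lum on chromosome 10, were not well above background on any array. Chad, Nyx and Optc did not reach the minimum of 4 arrays.

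Other neighbours gave no single pattern. On chromosome 10, Btg1, an antiproliferative gene before Dcn, was 0.39 higher in KO (SE 0.092, limma adjusted p = 0.0498), and Eea1 beyond it differed by 0.07. The deleted gene Dot1l is on chromosome 10 too, where 19 of 683 tested genes passed (2.78%), against 2.15% of all genes. Some other chromosomes had higher shares, up to 3.62% on the X chromosome. A part of the chromosome shared with Dot1l in the Lum and Dcn values was not tested. On chromosome 13, Nol8 and Iars beyond Ogn differed by -0.13 and -0.04. Dusp9, near Bgn on the X chromosome, fell by 0.58 (limma adjusted p = 0.00851).

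**Figure D3:**
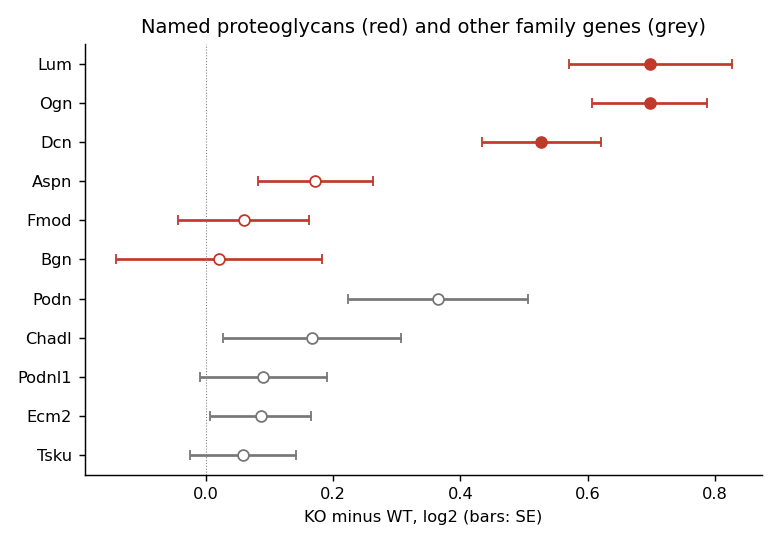
KO minus WT difference in log2 units (horizontal axis) with its SE for the 6 measured proteoglycan genes (red) and 5 other measured family genes (grey), filled where the gene passed the threshold over all genes. Lum and Ogn lie at 0.70 and Dcn at 0.53, and the remaining points lie between 0.02 and 0.36.

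No enzyme that builds the sugar chains passed without the replicate block. In the linker list, which makes the tetrasaccharide joining chain to protein, none of 10 measured genes passed in either direction, with a median of -0.0036. Ugdh, which makes UDP-glucuronate, differed by 0.42 (limma adjusted p = 0.07) and passed with the block (limma adjusted p = 0.0333), and Fam20b, the xylose kinase, by -0.39 (limma adjusted p = 0.14). None of 15 chondroitin and dermatan sulfate genes passed, with a median of 0.12 and 12 positive. Csgalnact2, which starts chondroitin chains, differed by 0.31 and the sulfotransferase gene Chst3 by 0.26. None of 8 keratan sulfate and tyrosine sulfation genes passed, with a median of 0.03, where Chst2 differed by -0.31 and B4galt4 by 0.26.

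Of all tested genes, 59.3% had a positive KO minus WT difference. Of the collagens and fibril proteins on which these proteoglycans sit, 2 of 28 rose, none fell, 25 differences were positive and the median was 0.26. The share called was 7.14%, against 2.15% of all genes. The lists were chosen with earlier results of these data known, so nothing is read from that share. With the replicate block, the fit that pairs same-numbered samples, 7 of the 28 rose. That fit called 555 of all 13974 genes, in place of 300. Col1a1, a chain of type I collagen, read 0.55, 0.21, 0.59 and 0.27 in KO1 to KO4, against -0.07, 0.06, -0.33 and -0.19 in WT1 to WT4. All KO arrays lay above the WT arrays, and the difference was 0.54 (SE 0.11, limma adjusted p = 0.0325). Mfap5, a microfibril glycoprotein gene, was 0.67 higher in KO (SE 0.14, limma adjusted p = 0.0325). Of 26 matrix processing enzymes none passed, 23 were positive and the median was 0.11. With the block 1 rose, Adamts1, by 0.56 (limma adjusted p = 0.00596, against 0.298 without it). In that list, Adamts2, the procollagen N-proteinase, differed by 0.36 (limma adjusted p = 0.102), and its second, dimmer probe by -0.08. P4ha2, a collagen prolyl hydroxylase subunit, differed by 0.40 (limma adjusted p = 0.241), and by 0.21 without WT4, which alone read -0.75.

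Among 22 measured growth factor and receptor genes bound by these proteins, 1 rose and 1 fell, with a median of 0.10. The share called was 9.09%, against 2.15% of all genes. Bmp2, a BMP ligand, fell by 0.65 (SE 0.10, limma adjusted p = 0.00745). It read -0.55, -0.31, -0.40 and -0.63 in KO1 to KO4, against 0.29, 0.25 and 0.17 in WT2 to WT4 and a value near 0 in WT1. Egfr, which decorin can bind, was 0.35 higher (limma adjusted p = 0.0352), but its other probes differed by -0.06 and -0.02. Among 20 other proteoglycans, 1 rose and 1 fell (10% called), with a median of 0.04, and with the block Gpc3 rose too, by 0.39. The testican Spock2 fell by 0.78 (SE 0.13, limma adjusted p = 0.00916), and the heparan sulfate syndecan Sdc2 was 0.45 higher (SE 0.099, limma adjusted p = 0.0385).

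Markers of the cells that could make these proteins were read from the same arrays. Of 24 stroma markers, which include Col1a1 and Mfap5, 6 rose and 1 fell, 15 differences were positive and the median was 0.21. The share called was 29.2%, against 2.15% of all genes, and 59.3% of all genes had a positive difference. The lists were chosen with earlier results of these data known, so nothing is read from this share. With the replicate block, which called 555 of all 13974 genes, Alx1, Col3a1 and Foxd1 rose too. Pdgfra, a fibroblast receptor, was 0.73 higher (limma adjusted p = 0.00763), the matrix gene Smoc2 0.65 higher (limma adjusted p = 0.00853) and Fibin 0.49 higher (limma adjusted p = 0.00745). Dkk2, a Wnt antagonist, fell by 0.80 (limma adjusted p = 0.00429). The list's mean log2 ratio per array lay between 0.13 and 0.24 in KO and between -0.07 and -0.01 in WT, and its part in the proteoglycan differences was not tested.

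Of 11 smooth muscle and mural markers none passed, and the median was 0.14. Notch3 differed by 0.28 and Tagln by 0.24 (limma adjusted p = 0.462 and 0.475). That list's mean log2 ratio per array spread from -0.25 to 0.44 in KO, against -0.10 to 0.26 in WT, and the groups overlapped. Without WT1 Notch3 differed by 0.14, and without KO3 Tagln differed by 0.11.

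Markers of neighbouring tissues were read to see what else the dissected pairs held. The counts stand beside 2.15% called over all genes. Of 3 measured skeletal muscle genes 2 rose, Tnni2 by 0.76 and Tnnt3 by 0.77 (limma adjusted p = 0.00334 and 0.00916), and Actc1 differed by -0.29 (limma adjusted p = 0.245). The list mean was 0.23 to 0.63 in KO and 0.0006 to 0.20 in WT, while the defining genes Myod1, Myog and Mylpf were not well above background on any array. Of 6 cartilage and tendon genes 1 fell, the tendon factor Scx, at -0.41 (limma adjusted p = 0.0232). The other 5 differences were positive, with Comp at 0.52 (limma adjusted p = 0.0721), and the list median was 0.20. Matn1, Snorc and Tnmd were not well above background on any array. Cartilage and tendon means lay between 0.11 and 0.19 in KO, against -0.01 to 0.08 in WT. Of 5 mesothelium and capsule genes 1 rose (Krt19, by 0.54, limma adjusted p = 0.0385), 2 were positive and the median was -0.0062. Gpm6a differed by 0.33, and Msln, Upk3b and Upk1b by -0.05, -0.0062 and -0.11. None of 7 gonad genes passed, with Sox9 at 0.24 and Cyp17a1 at 0.09. Of 6 adrenal and sympathetic genes 1 fell (Pnmt, at -0.57, limma adjusted p = 0.0183), 4 were positive and the median was 0.02. Chga differed by 0.31 (limma adjusted p = 0.292).

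Of 15 macrophage and leukocyte genes, 5 rose, all 15 were positive and the median was 0.30. The share called was 33.3%, against 2.15% of all genes. With the block, which called 555 of all 13974 genes, C1qc rose too. Mrc1 was 0.56 higher (limma adjusted p = 0.00555), Cx3cr1 0.51, Pf4 0.54 and F13a1 0.47 higher (limma adjusted p = 0.0124, 0.0151 and 0.0221). The list's mean lay between 0.19 and 0.31 in KO, against -0.17 to 0.01 in WT. Of 12 endothelial genes 1 rose (Sox17, by 0.43, limma adjusted p = 0.0461), and 2 with the block. The endothelial median was 0.05, and 8 differences were positive. Of 19 kidney identity genes none rose and 3 fell, led by the nephron progenitor gene Cited1 at -2.72 (limma adjusted p = 2.75e-08), with Lhx1 at -0.86 and Wt1 at -0.40 (limma adjusted p = 0.0145 and 0.0354). In that list 8 differences were positive, the median was -0.06 and the share called was 15.8%. With the block 2 of these 19 rose (Umod, by 0.75, and Foxd1, by 0.43) and 4 fell. Over all 18 lists, 17 of 231 measured genes rose and 8 fell, 10.8% in all, against 2.15% of all genes. Parts of these lists were chosen with earlier results of these data known, so nothing is read from their shares called.

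**Figure D4:**
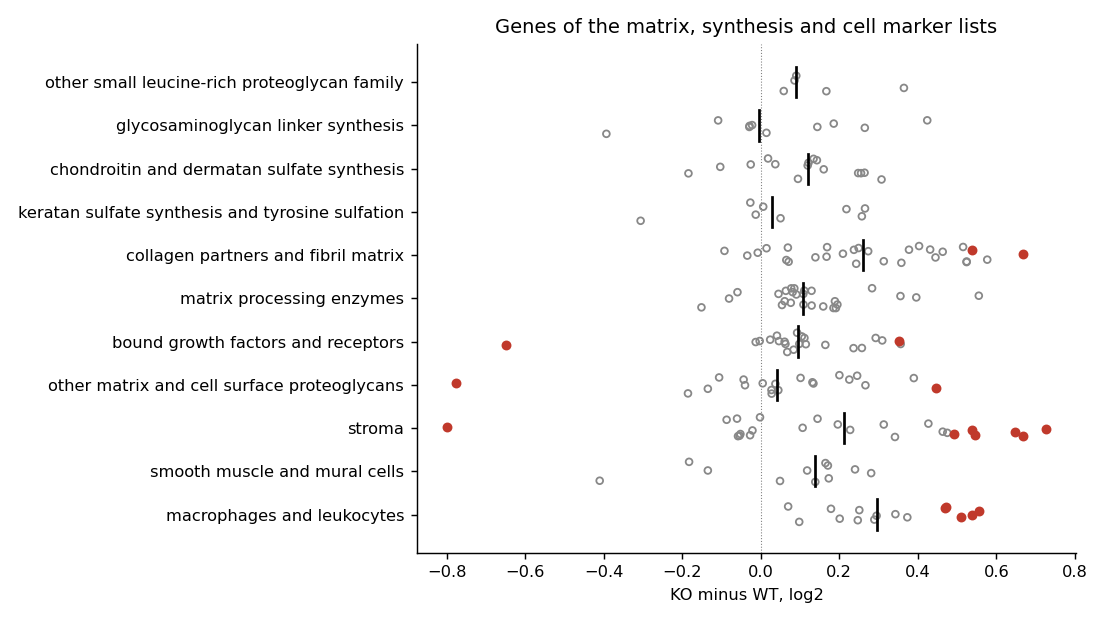
KO minus WT difference in log2 units (horizontal axis) of each measured gene in 11 lists (rows), with genes past the threshold over all genes filled in red and a black bar at each list's median. The collagen, stroma and macrophage lists have medians of 0.26, 0.21 and 0.30, and the 3 sugar chain lists hold no filled point in this fit, which has no block.

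The series as a whole bears on these values in several ways. Red negative-control medians were 58 to 61 scanner units on 6 arrays, 478.2 on KO1 and 1361 on WT1, and the green signal of an array correlated across probes with the green signal elsewhere at a median of 0.90 on KO1 and 0.57 on WT1 but at 0.9957 or more on the others. The number of arrays limits the precision. Dot1l itself differed by 0.03 (limma adjusted p = 0.924), where the position of the probe relative to the deleted part is not known, and Six2 by -0.21 (limma adjusted p = 0.439). Ddx3y, on the Y chromosome, read 2.31 to 3.19 on the 4 KO arrays and 3.29 on WT2, and -0.11 to 0.08 on the other WT arrays. Xist ran the opposite way, so sex is unbalanced and the sex term leaves WT2 alone to stand for male WT embryos. The X-linked Bgn read -0.25 with that term.

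**Figure D5:**
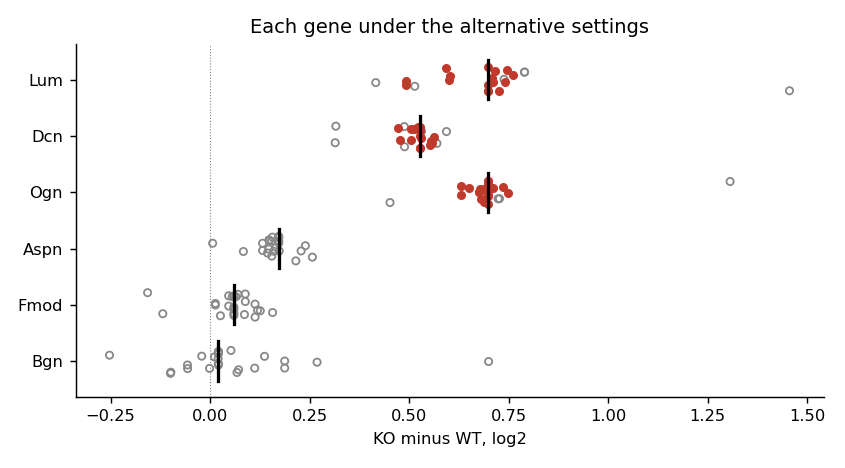
KO minus WT difference in log2 units (horizontal axis) of the 6 measured proteoglycan genes under the other processing settings (points, filled red where the gene passed the threshold over all genes), with a black bar for the value in the text. Lum, Dcn and Ogn stay above 0 in all settings run, while Bgn and Fmod fall on both sides of 0.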

How the data were processed

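Total RNA was amplified and labelled with Cy3 or Cy5, per the labels. The deposited scanner output came from Agilent Feature Extraction 10.7.3.1, per the submitters' processing notes. The deposited intensity columns are median red and green spot signals with local backgrounds, not normalised, per the file headers. The deposited log10 ratios were background-subtracted and dye-normalised by the software, per the file headers, and served as an alternative. Per the file headers, other columns are flags.

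With limma 3.58.1 (R 4.3.3, files read by the data.table package, version 1.17.8), signals were corrected by normexp (offset 50) and loess within arrays, with control spots at weight 0. Outlier readings were dropped (1765, 0.372%) and no spot was saturated. Probes well above background in red on at least 4 of 8 arrays were kept (18136 named probes), and the brightest stood for its gene. RefSeq on GRCm38.p6 named 27509 of 29150 probes with a RefSeq accession. It gave names and gene order. KO and WT were compared for 13974 genes with lmFit and eBayes, Benjamini-Hochberg, threshold 0.05, without a block, and the script was tested on simulated data. Named genes were the 8 proteoglycans, Dot1l, Six2, Ddx3y, Xist, up to 4 called or 2 uncalled genes per list with the smallest p, the measured family genes, and the 5 genes most correlated with Lum and with Dcn. Other genes named were chosen after their values were seen. The members and lists were chosen with earlier results of these data known.

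Deviations of same-numbered samples, which share a slide column, correlated at 0.14, 0.37, 0.26 and 0.30. All 4 exceed 0.1, the limit set for treating the numbers as pairs, but KO1 correlated more with WT4 (0.37) and KO3 with WT2 (0.31), so the pairing is not clear-cut. With the replicate block, 555 genes passed in place of 300. Nothing in the labels ties 2 samples to 1 litter. The design text calls the samples biological replicates.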

Additional observations from a re-analysis of the deposited data

How the results depend on the processing

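Lum, Dcn and Ogn were above 0 in every setting run, a direction that the choice of genes used and that is no sign of stability. Each of the 25 called list genes kept its sign in every setting run for it. They were picked as called on these same arrays, so that is no sign of stability either. Col1a1 passed in only 8 of 23 settings, Mfap5 in 11 of 23, Sdc2 in 8 of 23 and Egfr in 6 of 22. In place of 300 genes, the test called 123 with the software's ratios (73 higher, 50 lower) and 123 with the deposited table, 0 with median centring (178 at an unadjusted p under 0.05), 1 in red alone, 147 in red alone on the other 6 arrays (WT1 and KO1 dropped), 555 with the replicate block (444 higher, 111 lower), 476 with array weights, 12 with sex as a term (4 higher, 8 lower), and 529 with the replicate block on the 6 arrays that remain when WT1 and KO1 are dropped, a setting added after seeing the data. Leaving out single arrays gave 83 (without KO4) to 345 (without KO1) genes, and 249 without both WT1 and KO1, of which 189 were among the 300. In place of 25 genes of all lists, the counts in those settings were 11 and 11, 0, 1, 9, 39 with the block and 2 with sex, and 12 to 24 with single arrays left out.

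In red alone the median of the 6 genes was 0.51, Lum was 1.46, Dcn 0.31, Bgn 0.70, Fmod -0.16 and Ogn 1.31. In red without WT1 and KO1, Lum was 0.42, Dcn 0.32, Ogn 0.45 and Aspn 0.0062. With sex as a term Fmod was -0.12. With single arrays left out, the median ranged from 0.31 to 0.39, Lum from 0.59 to 0.76, Dcn from 0.47 to 0.56, Bgn from -0.10 to 0.14, Fmod from 0.01 to 0.13, Ogn from 0.65 to 0.75 and Aspn from 0.14 to 0.23. The block changed no call among the 6 proteoglycans. The cause of these moves was not tested. The wide range in red alone comes with WT1 and KO1 in the fit. Signal over background limits Aspn, and Omd gave no level.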
